A study of Homo sapiens with 9 samples.

Results

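The methionine cycle and transsulfuration genes described here are CBS, CTH, AHCY, MAT2A, MAT2B, MTR and MTRR, 7 genes of the 23235 named genes in the deposited RNA-seq tables. They were found by symbol, and each had 1 row of its own. All 7 passed a filter on low values, namely 1 FPKM (fragments per kilobase of a gene, adjusted for the depth of the library) averaged over the libraries, which 11198 genes passed. The cells were CA46, an established human B lymphocyte line of Burkitt lymphoma origin, in which a translocation drives MYC. They were infected for 48 h with a virus that carried a non-targeting control shRNA or a Myc shRNA, and for 20 h before harvest they received PBS or dimethyl succinate (DMS, an ester of succinate that enters cells) at 10 mM. Each of the 4 combinations of virus and medium was 1 library, so the groups are control virus in PBS, control virus in DMS, Myc shRNA in PBS and Myc shRNA in DMS. All groups share the cell line and a viral infection, and uninfected cells were not among them. The series addresses whether succinate raises H3K4me3, a mark of active promoters, when MYC is depleted, and its 5 ChIP-seq and input samples were not analysed here.

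In the methionine cycle, methionine is joined to ATP to make S-adenosylmethionine, the methyl donor for histones, DNA, RNA and small molecules. Each methyl transfer leaves S-adenosylhomocysteine, which is split to homocysteine. Homocysteine is either methylated back to methionine with a folate methyl group and cobalamin, or passed into transsulfuration, where it gives cysteine for glutathione. The cycle therefore supplies the methyl groups that H3K4 methyltransferases use.

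Depth was read from the lowest step of non-zero values in genes with short loci, which implied 22.5 to 25.7 fragments per kilobase for each deposited FPKM; the figure is rough, since it rests on 22 to 42 genes and on a range of values set after seeing the steps. MYC, the target of the shRNA, stood at 1868 and 1651 FPKM under the control virus (PBS, then DMS) and at 17.1 and 625 FPKM under the Myc shRNA. The knockdown library in DMS thus kept 37.9% of the MYC level of its control, against 0.913% in PBS. The log2(FPKM + 1) ratio of MYC in DMS to PBS was 5.12 in knockdown cells and -0.18 in control cells. The part of MYC in the differences between media was not tested. The defining B cell markers CD79A, CD79B, MS4A1, PAX5 and CD22 lay between 43.2 and 2547 FPKM, and these 5 rose in the knockdown. Of 5 myeloid markers, LYZ, CD68 and ITGAM rose and CD14 and CSF1R were at most 0.219 FPKM, and the summed level of the list was 25.9, 12.1, 173.7 and 106.7 FPKM in the group order above. Of 5 T cell markers CD2 rose, to at most 1.78 FPKM, and CD8A was listed at 0 in every library. The list summed to 9.82, 8.30, 9.22 and 9.31 FPKM, most of it from a marker that lay somewhat lower in the knockdown and was not called. Of 3 epithelial markers EPCAM fell, KRT8 and KRT18 were listed at 0, and the list summed to 4.8, 4.7, 0.808 and 2.82 FPKM. The 4 liver markers reached at most 0.422 FPKM, with summed levels of 0.439, 0.239, 0.174 and 0.233 FPKM, and their part and that of the other marker lists in the results below was not tested.

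In the control cells the transcripts of the 2 shared steps were the most abundant members. FPKM is a level per length of gene model, so genes can be set side by side. In control cells in PBS the order from the highest was AHCY, MAT2A, MAT2B, CBS, MTRR, MTR and CTH, from 335 FPKM down to 0.914 FPKM. AHCY stood above 97.4% of the genes kept and CTH above 2.81%. The order differed in the knockdown in PBS, where MAT2A (55.1 FPKM), MAT2B (49.6 FPKM) and AHCY (48.8 FPKM) lay close together and CBS (0.0798 FPKM) was below CTH (0.427 FPKM). Over the 4 libraries the ranges of neighbours in this order did not overlap for MAT2A and MAT2B, MTRR and MTR, or MTR and CTH, and overlapped for AHCY and MAT2A, MAT2B and CBS, and CBS and MTRR. In PBS the 7 members summed to 557 FPKM under the control virus and 167 FPKM under the Myc shRNA, and AHCY made up 60.1% of the first sum and 29.2% of the second.

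**Figure D1:**
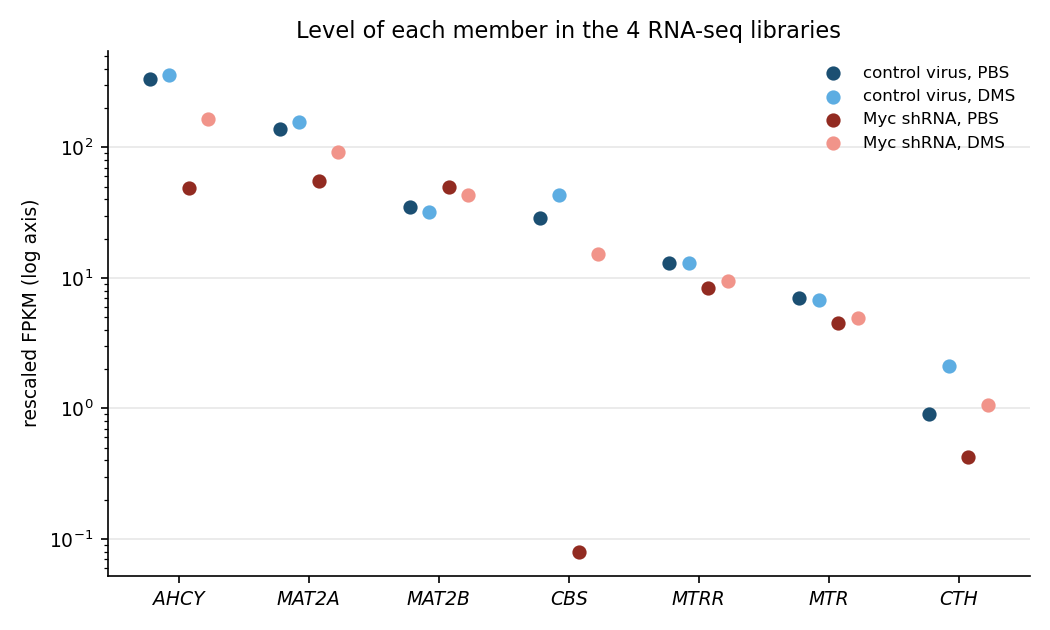
Rescaled FPKM on a log axis for each of the 7 members, with 1 point for each of the 4 libraries (blue for the control virus, red for the Myc shRNA, paler in DMS). CBS spans from 0.0798 to 43.1 FPKM, whereas MAT2B alone has both knockdown points above both control points.

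Promoter windows of CBS, AHCY and MAT2A, the members with the largest knockdown ratios, and of MAT2B, whose knockdown levels lay above control, are shown because the study addresses promoter chromatin. RefSeq windows of 250 bases upstream of a transcription start (GRCh38.p14) were found for 6 of the 7 members, 12 windows in all; the other member is MTRR. The canonical E-box that MYC and MAX bind, CACGTG (the same on both strands), was in 0 of these 12 windows and in 6.34% of all 35116 windows. GATGCAA, the core of the amino acid response element, or TTGCATC on the other strand, was in 0 of 12 windows and in 2.05% of all windows. The variant E-box CACGCG, or CGCGTG on the other strand, was chosen after the windows had been seen. It was in 4 of 12 windows, of CBS, AHCY and MAT2B, and in 9.72% of all windows. Because of how it was chosen these shares carry no test, and the windows were not matched for G and C. Capitals mark this variant, 76 bases before the start of the most upstream CBS transcript, 11 bases before the start of the AHCY transcript shown and 155 bases before the MAT2B start shown; the single MAT2A window holds none. A second AHCY window, not shown, held it 116 bases before its start. These matches are letters in a window and no binding was measured. The windows lie at chr21:43076378-43076627 (minus strand), chr20:34303356-34303605 (minus strand), chr2:85538918-85539167 (plus strand) and chr5:163505369-163505618 (plus strand).
CBS: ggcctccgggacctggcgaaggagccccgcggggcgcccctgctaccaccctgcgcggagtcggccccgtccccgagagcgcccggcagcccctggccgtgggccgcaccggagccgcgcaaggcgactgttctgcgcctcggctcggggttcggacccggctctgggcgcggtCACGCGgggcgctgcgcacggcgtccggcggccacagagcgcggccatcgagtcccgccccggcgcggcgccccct
AHCY: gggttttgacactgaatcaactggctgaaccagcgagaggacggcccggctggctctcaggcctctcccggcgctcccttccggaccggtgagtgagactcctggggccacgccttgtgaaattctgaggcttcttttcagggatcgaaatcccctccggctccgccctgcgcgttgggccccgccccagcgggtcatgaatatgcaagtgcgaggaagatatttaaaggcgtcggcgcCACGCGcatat
MAT2A: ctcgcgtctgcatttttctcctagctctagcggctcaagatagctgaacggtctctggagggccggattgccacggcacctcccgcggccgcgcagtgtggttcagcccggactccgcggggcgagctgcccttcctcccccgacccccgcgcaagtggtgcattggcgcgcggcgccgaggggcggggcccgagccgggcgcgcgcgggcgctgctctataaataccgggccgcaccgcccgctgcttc
MAT2B: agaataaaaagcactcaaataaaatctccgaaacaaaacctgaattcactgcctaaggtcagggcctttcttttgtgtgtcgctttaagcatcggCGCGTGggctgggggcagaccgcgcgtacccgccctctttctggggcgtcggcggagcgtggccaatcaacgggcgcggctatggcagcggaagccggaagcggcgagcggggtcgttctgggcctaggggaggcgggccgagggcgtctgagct
Of the windows shown, that of CBS was 80.8% G and C, above 97.4% of all windows. Those of MAT2A, AHCY and MAT2B were 71.6%, 61.6% and 61.2%, against a median of 58.0% over all windows. The other windows of these genes were 81.2% and 52% for CBS, 66% and 74.4% for AHCY and 36.8% for MAT2B. Of these only the AHCY window at 66% held CACGCG or CGCGTG.

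The first comparison asked what the Myc shRNA did to these genes in PBS and in DMS. CBS and AHCY were at least 2-fold lower in the knockdown in both media, MAT2A was so in PBS, and MTR, MTRR and CTH lay below control without reaching 2-fold on the log2(FPKM + 1) scale; CTH was 2.14-fold lower in PBS in FPKM itself. MAT2B lay above control in both media. By this rule 3 of 7 members were lower in PBS, where 17.0% of all genes tested were, and 0 were higher, where 14.4% of all genes were. In DMS 2 of 7 members were lower, against 3.56% of all genes, and 0 were higher, against 9.66% of all genes. The median log2 ratio of the members was -0.58 in PBS and -0.59 in DMS, and that of all genes was 0.00 in both. Ratios are on the log2(FPKM + 1) scale, which understates the change of low genes, and a single pair of libraries has no replicate check. FPKM is relative to the RNA in a library, so a change in total RNA per cell is not seen, and fewer cells of a type and less RNA per cell cannot be told apart.

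Synthesis of S-adenosylmethionine is the work of MAT2A, the catalytic subunit of the enzyme outside liver, and MAT2B, its regulatory subunit. MAT2A (chromosome 2, 85764590 to 85788657, hg19) was 137 and 157 FPKM under the control virus (PBS, then DMS) and 55.1 and 91.8 FPKM under the Myc shRNA. Both knockdown libraries lay below both control libraries, with log2 ratios of -1.30 in PBS and -0.77 in DMS. These ratios stood above 11.2% and 9.70% of all genes. MAT2B (chromosome 5, 162930070 to 162946359, hg19) was 35.0, 31.9, 49.6 and 43.5 FPKM in the same order. Here both knockdown libraries lay above both control libraries, with log2 ratios of 0.49 and 0.44. Those ratios stood above only 70.5% and 74.4% of all genes, and the share of genes with such a separation was not counted. The 2 subunits thus stood in different proportion: the ratio of MAT2A to MAT2B FPKM was 3.93 and 4.93 in control cells in PBS and DMS, 1.11 in the knockdown in PBS and 2.11 in the knockdown in DMS. The deposited locus of MAT2A also holds PARTICL, an RNA transcribed against the MAT2A promoter, and GGCX. The strand setting of the counting is not given in the sources used here, so reads of overlapping parts may be shared. PARTICL was 5.51, 4.93, 2.19 and 3.21 FPKM, and GGCX was 3.64, 3.89, 3.64 and 3.53 FPKM, both well under MAT2A in every library.

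AHCY (chromosome 20, 32868071 to 32899608, hg19) hydrolyses S-adenosylhomocysteine, a product that inhibits methyltransferases, to homocysteine and adenosine. Its level was 335 and 361 FPKM under the control virus (PBS, then DMS), against 48.8 and 164 FPKM under the Myc shRNA. The knockdown level was 14.6% of control in PBS and 45.6% in DMS, and the groups did not overlap. Its log2 ratio of -2.75 in PBS stood at position 116 from the lowest of 11198 genes, and that of -1.13 in DMS at position 172. The ratio of AHCY to MAT2A FPKM was 2.43 and 2.30 in the control cells, 0.886 in the knockdown in PBS and 1.79 in the knockdown in DMS.

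Remethylation of homocysteine is carried out by MTR, the cobalamin-dependent methionine synthase, and MTRR, the reductase that keeps its cobalamin active. MTR (chromosome 1, 236958581 to 237067281, hg19) was 7.08 and 6.82 FPKM under the control virus and 4.51 and 4.89 FPKM under the Myc shRNA. MTRR (chromosome 5, 7869217 to 7901235, hg19) was 13.1 and 12.9 FPKM under the control virus and 8.39 and 9.40 FPKM under the Myc shRNA. Each gene was lower in both knockdown libraries than in both control libraries, at 63.8% and 64.2% of control in PBS and 71.7% and 72.8% in DMS. The log2 ratios of MTR and MTRR stood above 29.0% and 27.9% of all genes in PBS and 25.7% and 25.1% in DMS. For these and the other members, the share of all genes with such a separation of libraries was not counted. The partners kept nearly the same proportion, with a ratio of MTRR to MTR FPKM between 1.84 and 1.92 in the 4 libraries.

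Transsulfuration runs through CBS, which condenses homocysteine with serine to cystathionine, and CTH, which cleaves cystathionine to cysteine. CBS (chromosome 21, 44473301 to 44496472, hg19) was 28.8 and 43.1 FPKM under the control virus (PBS, then DMS) and 0.0798 and 15.3 FPKM under the Myc shRNA. The knockdown library in PBS stood far below the other 3, at 0.277% of its control, while the knockdown library in DMS was at 35.6% of its control. The low value corresponds to roughly 1.80 fragments per kilobase, so its size is poorly fixed, and the log2 ratio in PBS was -4.79 with a pseudocount of 1 and -7.33 with a pseudocount of 0.1. With the former it stood at position 7 from the lowest of 11198 genes in PBS, and in DMS the log2 ratio of -1.43 stood at position 15. CTH (chromosome 1, 70876901 to 70906393, hg19) was near the filter, at 0.914, 2.1, 0.427 and 1.06 FPKM. It passed only through the control library in DMS, where its level was highest. The groups overlapped for CTH, since the knockdown in DMS lay above the control in PBS. Its knockdown level was 46.7% of control in PBS and 50.4% in DMS, which on the log2(FPKM + 1) scale was -0.42 and -0.59. The ratio of CBS to CTH FPKM was 31.5 and 20.5 in the control cells, 0.187 in the knockdown in PBS and 14.5 in the knockdown in DMS.

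**Figure D2:**
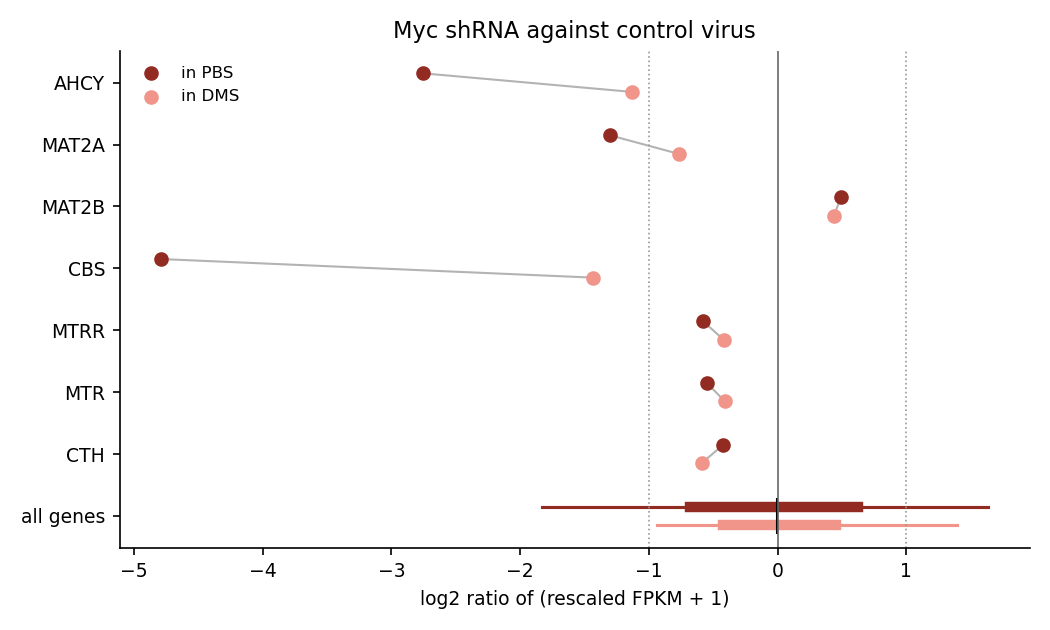
Log2 ratio of (rescaled FPKM + 1), Myc shRNA against control virus, for each member in PBS (dark) and in DMS (pale). The bottom line gives all 11198 genes, with thick bars for the middle 50% and thin lines from the 5th to the 95th percentile; CBS at -4.79 and AHCY at -2.75 lie left of that line in PBS, and dotted lines mark a 2-fold difference.

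Over both media, limma tested the knockdown with medium as a second term. Of the 7 members 6 fell, where 27.8% of all 11198 genes fell, and 0 rose, where 27.8% of all genes rose. The log2 fold change of CBS was -3.11, with an SE of 0.70 and an adjusted p of 0.0122 by limma. That of AHCY was -1.94 (SE 0.37), with an adjusted p of 0.00824 by limma. That of MAT2A was -1.04 (SE 0.21), with an adjusted p of 0.00909 by limma. The other 3 had like values, with MTR at -0.48 (adjusted p = 0.0291), MTRR at -0.50 (adjusted p = 0.0303) and CTH at -0.51 (adjusted p = 0.0340, all by limma). The 6 include CTH, which passed the filter only through its control library in DMS. MAT2B did not pass the threshold of 0.05 at 0.46 (SE 0.17), where limma gave an adjusted p of 0.0611. Only 1 residual degree of freedom per gene supports this fit, and without a filter on low values CBS (adjusted p = 0.0786), AHCY (0.0551), MTR (0.088) and MTRR (0.0764) no longer passed by limma, while CTH (0.0463) and MAT2A (0.0458) did; 4 members fell with virus as the only term, where CBS (0.0978) and CTH (0.229) were lost, and 4 with upper-quartile rescaling, where MTR (0.0545) and MTRR (0.0572) were lost and MAT2B rose (0.0328). Over all genes, 1356 fell without the filter, 2264 with virus as the only term and 2816 with upper-quartile rescaling, against 3112 in the main fit. A fit with 1 library left out held 1 library in a virus group, and its effect sizes follow, with virus as the only term. The log2 fold change then ranged from -5.07 to -1.15 for CBS, from -2.81 to -1.08 for AHCY and from -1.4 to -0.673 for MAT2A. It ranged from -0.528 to -0.432 for MTR, from -0.575 to -0.428 for MTRR and from -0.855 to -0.159 for CTH. For MAT2B it ranged from 0.372 to 0.557.

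The losses in the 2 media were most unequal for CBS and AHCY. The log2 ratio in DMS minus that in PBS was 3.36 for CBS, at position 7 from the highest of 11198 genes, and 1.62 for AHCY, at position 118. It was 0.53 for MAT2A, at position 1598 only, 0.16 for MTRR, 0.14 for MTR, -0.06 for MAT2B and -0.17 for CTH. With 1 library per group this difference has no test. MYC stood at 17.1 FPKM in the knockdown library in PBS and at 625 FPKM in that in DMS. Its part in the difference was not tested.

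The other comparison was of DMS with PBS under each virus. In control cells CBS and CTH lay above PBS while the other members differed little, and in knockdown cells CBS and AHCY were at least 2-fold higher in DMS. In control cells 0 of 7 members were at least 2-fold higher, against 0.0804% of all genes, and 0 were lower, against 0.402% of all genes. CTH went from 0.914 to 2.1 FPKM, a 2.30-fold difference in FPKM and 0.70 on the log2(FPKM + 1) scale, which stood at position 60 from the highest of 11198 genes. Since CTH passed the filter only through this DMS library, the position is a description and no support for a difference. In knockdown cells CTH stood at position 1629. CBS went from 28.8 to 43.1 FPKM, 1.50-fold, and stood at position 135. The remaining 5 members lay between -0.13 (MAT2B) and 0.19 (MAT2A) on the log2 scale, with AHCY at 0.11. With a pseudocount of 0.1, CTH passed 2-fold in control cells.

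In the knockdown cells 2 of 7 members were at least 2-fold higher in DMS than in PBS, against 4.96% of all genes, and 0 were lower, against 0.455% of all genes. AHCY went from 48.8 to 164 FPKM, 3.37-fold. CBS went from 0.0798 to 15.3 FPKM, and its log2 ratio of 3.92 stood at position 5 from the highest. CTH went from 0.427 to 1.06 FPKM (log2 ratio 0.53) and MAT2A from 55.1 to 91.8 FPKM (0.73). With a pseudocount of 0.1 the CTH ratio was 1.14, so that 3 members passed 2-fold. MTR (0.10), MTRR (0.15) and MAT2B (-0.19) differed little between the media. None of these levels passed the control library in DMS except that of MAT2B, which was already above it in PBS.

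**Figure D3:**
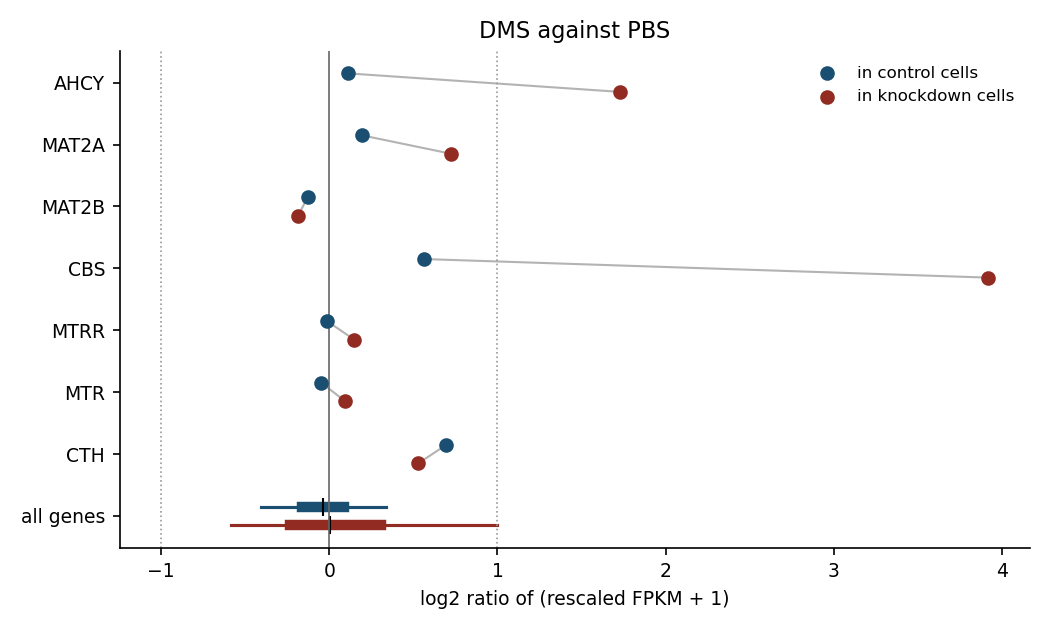
Log2 ratio of (rescaled FPKM + 1), DMS against PBS, for each member in control cells (blue) and in knockdown cells (red). All 11198 genes are at the bottom, with the middle 50% as thick bars and the 5th to 95th percentile as thin lines; CBS at 3.92 and AHCY at 1.73 in knockdown cells lie right of that line, as do CTH at 0.70 and CBS at 0.56 in control cells.

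Over both viruses limma, with virus as a second term, called 0 of 7 members and 0% of all 11198 genes in either direction at an adjusted p under 0.05. At an unadjusted p under 0.05 it counted 1425 genes, among them 3 members, CBS, CTH and AHCY. The DMS effect, averaged over the viruses, was 2.24 for CBS (SE 0.70, adjusted p = 0.320 by limma), 0.61 for CTH (SE 0.16, adjusted p = 0.284 by limma) and 0.92 for AHCY (SE 0.37, adjusted p = 0.390 by limma). For CBS the average joins log2 ratios of 0.56 in control cells and 3.92 in knockdown cells. For AHCY it joins 0.11 and 1.73. Such inequality enters the SE and the p-value. CTH was higher with DMS in both pairs, as were CBS, AHCY and MAT2A, and MAT2B was lower in both.

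Genes that feed the cycle or draw on it were described by 7 further lists of 52 genes, of which 42 passed the filter. In the limma fit of the knockdown over both media 23 fell, 5 rose and 14 did not pass, where 27.8% of all genes fell and 27.8% rose. In PBS 17 of the 42 were at least 2-fold lower and 3 higher, against 17.0% and 14.4% of all genes. In DMS 5 were lower and 1 higher, against 3.56% and 9.66% of all genes. The counts of single lists below stand against the same shares, and with 4 to 9 genes a list they are descriptions only. The liver-type enzymes MAT1A, BHMT and BHMT2, alternatives to MAT2A and MTR in that organ, were at most 0.148 FPKM or listed at 0.

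Of 6 other methionine cycle genes that passed the filter 2 fell and 1 rose, with a median log2 ratio of -0.37 in PBS. METTL16, which methylates MAT2A mRNA, fell (log2 fold change -0.73, adjusted p = 0.0114 by limma), as did SLC25A26, the mitochondrial carrier of S-adenosylmethionine (-0.53). ADK, the kinase that removes the adenosine AHCY releases, had a log2 fold change of -0.43 and the AHCY relatives AHCYL1 and AHCYL2 of -0.21 and 0.26, none of which passed.

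Of 5 genes of cobalamin supply 2 fell and 1 rose, near the shares over all genes. CD320, the receptor for transcobalamin-bound cobalamin, was 230.5 and 219.6 FPKM under the control virus and 20.7 and 90.6 FPKM under the Myc shRNA, and fell (log2 fold change -2.34, adjusted p = 0.00906 by limma). MMACHC, which processes cobalamin in the cytosol, fell (-1.54), while LMBRD1, a protein of lysosomal cobalamin export, rose (1.68, adjusted p = 0.0011 by limma). ABCD4 (0.35) and MMADHC (-0.05) did not pass. Of 4 genes that make, bind or break down pyridoxal phosphate, the cofactor of CBS and CTH, 3 fell, among them the kinase PDXK (-0.77) and the phosphatase PDXP (-1.65), which degrades the cofactor.

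In the list for methionine salvage, which returns the methylthio group of polyamine synthesis to methionine, 4 of 6 genes fell, with a median log2 ratio of -1.31 in PBS. AMD1 is counted in this list although it decarboxylates S-adenosylmethionine for polyamine synthesis, ahead of the salvage steps. Their log2 fold changes were -1.29 for MTAP, -1.26 for AMD1, -1.01 for MRI1 and -0.99 for ENOPH1 (adjusted p from 0.00745 to 0.0106 by limma). APIP (-0.46) and ADI1 (-0.54) did not pass. In the list for methionine and cystine uptake 3 of 6 genes fell, namely SLC7A5 (-2.57), its heavy chain SLC3A2 (-1.70) and SLC1A5 (-1.64). Not every gene of this list carries methionine or cystine itself. SLC38A2 rose (log2 fold change 0.50, adjusted p = 0.0446 by limma), and the cystine transporter SLC7A11 (-0.33) and SLC43A2 (0.47) did not pass.

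In the list of small-molecule methyltransferases, which spend S-adenosylmethionine, 4 of 6 genes fell and 2 rose. PEMT, which methylates phosphatidylethanolamine, fell (-2.22) and was 42.2, 39.6, 3.54 and 16.8 FPKM in the group order used above. GAMT, which makes creatine (-1.43), fell too, as did ICMT (-0.83), which is counted in this list although it methylates proteins. TPMT (1.17) and GNMT (0.65) rose. Downstream of CTH, 5 of 9 cysteine and sulfide genes fell and 0 rose. These were GOT1 (-0.97), MPST (-0.90), TST (-0.76), GCLM (-0.76) and the glutathione synthetase GSS (-0.66). GCLC, the catalytic subunit for which GCLM is the modifier, had a log2 fold change of 0.37 that did not pass (adjusted p = 0.0679 by limma).

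**Figure D4:**
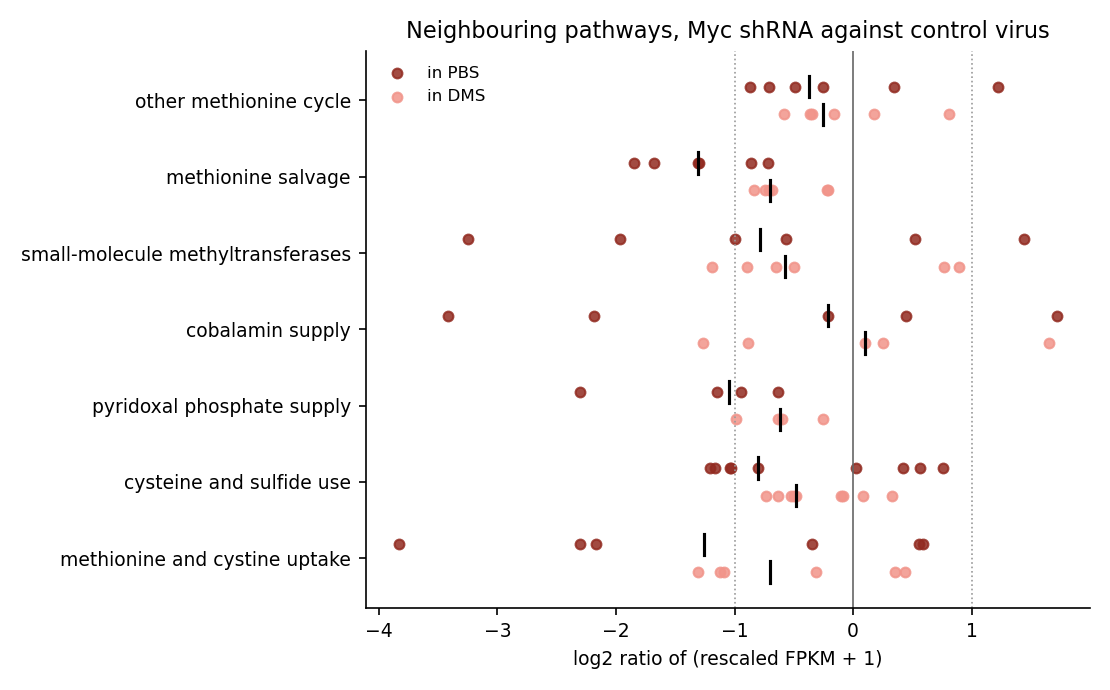
Log2 ratio of (rescaled FPKM + 1), Myc shRNA against control virus, for the 42 genes of 7 further lists that passed the filter, with PBS dark and DMS pale. Black bars give list medians and dotted lines a 2-fold difference; SLC7A5, CD320 and PEMT in PBS are the leftmost points.

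Likeness of profile was measured as the Euclidean distance between centred log2(FPKM + 1) values over the 4 libraries, among the 8310 other genes that averaged 5 FPKM or more. CBS, whose level spanned 5.35 log2 units, had few like it, with 3 genes within 0.5 units and 10 within 1. The nearest were GALNT18 (distance 0.38), KISS1R (0.41), HPDL (0.47), NPW (0.53) and DDN (0.70), each between 0.248 and 2.33 FPKM in the knockdown in PBS. AHCY had 214 genes within 0.5 units, and among the nearest were the peroxiredoxin PRDX4 (distance 0.07), the sorbitol dehydrogenase SORD (0.08), SLC39A14 (0.10) and CAMKK1 (0.10). MAT2A was close to many genes, with 1487 within 0.5 units and LRFN1, RPUSD3, the joint row of LEAP2 and UQCRQ, SCML1 and PDDC1 nearest. CTH had 502 within 0.5 units, with NCKIPSD, CA11, SCOC-AS1, SMYD3 and LGMN nearest. With only 4 libraries, 1 per group, these distances describe how alike the differences between libraries were in size, and carry no test. The order of levels could differ, since NPW and DDN were lower in DMS than in PBS in control cells, unlike CBS.

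**Figure D5:**
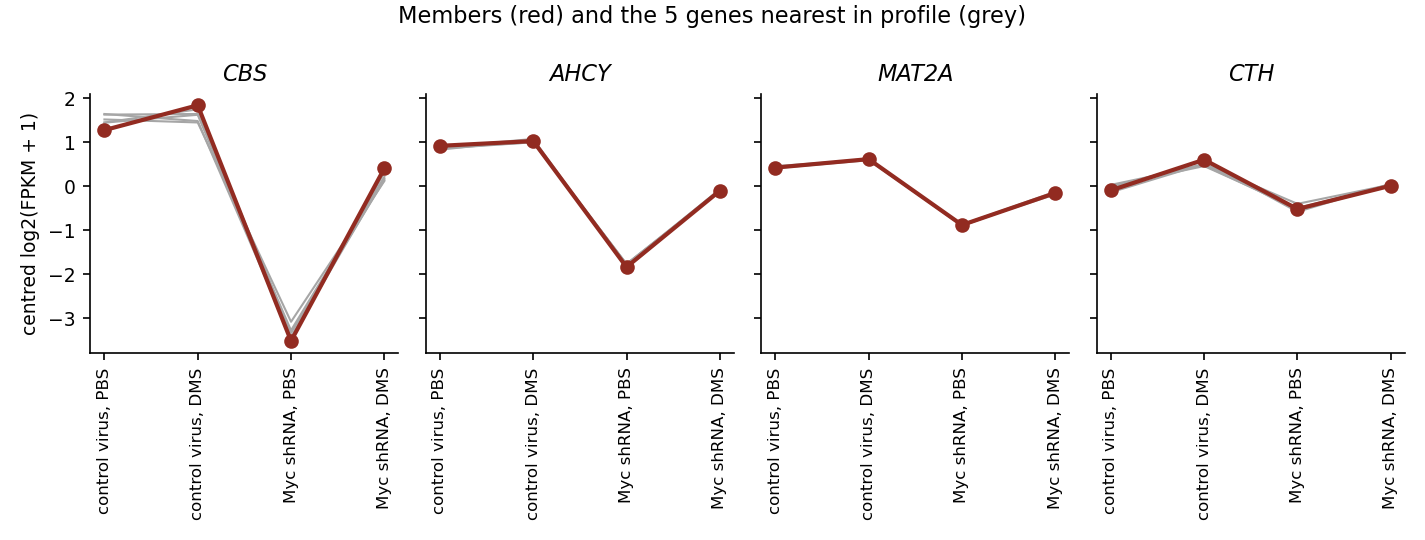
Log2(FPKM + 1) centred on its mean over the 4 libraries, for CBS, AHCY, MAT2A and CTH (red) and the 5 genes nearest to each (grey). The grey lines of AHCY and MAT2A lie almost under the red line, whereas the nearest gene to CBS is 0.38 log2 units away.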

How the data were processed

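Total RNA (TRIZOL) went into NEBNext Ultra libraries, per the labels' protocols. The tools in the submitters' processing notes included fastp, TopHat2 2.1.0 and Cuffdiff 2.2.1 and the human build was hg19, with no role or order; for annotation and strand setting the sources used here give nothing. The authors deposited 1 table of FPKM for each of 4 libraries, although these are named as read counts, since the values were fractional. Starts in the tables count from 0 and were raised by 1. Rows with no gene name (3919 of 31016 rows, 15.7%, 14.3%, 25.2% and 22.4% of summed FPKM in the group order of the report) and small RNA genes were left out, and rows of a symbol were summed. Each library was rescaled to the mean library by its log2 ratios, averaged over genes of at least 1 FPKM after trimming both tails (30% by ratio, 5% by level), with factors of 0.951, 0.964, 1.05 and 1.04. Depth was a rough estimate from low values, and no counting interval was computed from it.

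Log2 ratios of single pairs used log2(FPKM + 1), with a call at 1 in size. limma 3.58.1 (R 4.3.3) with an intensity trend was fitted across all genes to the same values with virus and medium as additive terms, with Benjamini-Hochberg adjustment over 11198 genes. The fit had 1 residual degree of freedom and 5.04 prior degrees of freedom per gene, and an unequal effect in the 2 media enters its residual. With 1 library per group that residual is the inequality of the effect between the media, and no spread between replicates enters it. The prior part is a spread pooled over genes. Nothing in the labels ties the 4 libraries to separate cultures, and a p-value does not measure how cultures vary. Alternatives were the values as deposited, upper-quartile rescaling, a pseudocount of 0.1, no filter, rows of the symbol alone, the tested term alone and each library left out. The members and lists were chosen with earlier results of these data known. Named beyond the members are list genes called by limma or past 2-fold, the 2 most changed of each list, list genes that did not pass (named after their values were seen), and the 5 nearest profiles for members whose level spanned at least 1 log2 unit. Some genes of the lists, markers and nearest profiles that these rules select are not reported here by name, and counts and sums of a list include them.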

Additional observations from a re-analysis of the deposited data

How the results depend on the processing

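The number of members that fell in the knockdown by limma, 6, was 2 with no filter on low values, 4 with virus as the only term, 4 with upper-quartile rescaling and from 0 to 5 when 1 library was left out with virus as the only term; the number that rose, 0, was 1 (MAT2B) with upper-quartile rescaling and from 0 to 1 with a library left out. Over all genes, 3112 fell and 3110 rose; 1356 fell with no filter, and leaving out a library gave from 0 to 3750 that fell and from 0 to 3560 that rose. For DMS, upper-quartile rescaling called 25 genes that fell and 14 that rose by limma, and a library left out from 0 to 1 and from 0 to 46, with 0 to 1 members that rose (CBS, at 4.64, without the control library in PBS). With a library left out, the DMS effect reversed for CBS (-0.152 to 4.64), AHCY (-0.456 to 2.3), MAT2A (-0.192 to 1.11), MAT2B (-0.403 to 0.0896), MTR (-0.251 to 0.3), MTRR (-0.225 to 0.357) and MYC (-0.878 to 5.82), for all 7 without the knockdown library in PBS and for MAT2B, MTR and MTRR also without the control library in DMS; these fits hold an unequal number of viruses per medium. With a pseudocount of 0.1, 1 member was 2-fold higher with DMS in control cells, 3 list genes were higher in the knockdown in DMS, and all genes at least 2-fold apart numbered 136 lower and 45 higher with DMS in control cells and 96 lower in knockdown cells. As deposited, 674 genes were lower in the knockdown in DMS; it shifted the all-gene median of the knockdown ratio in PBS by -0.12, and upper-quartile rescaling by 0.13. Where no cause follows from fewer libraries or genes in a fit, the cause was not tested. Of 140 pair ratios of members under alternatives, 3 moved by over 1.5-fold, all of CBS or CTH with a pseudocount of 0.1. No paired analysis was possible because each group holds 1 library and the labels give no replicate numbers to pair; the additive fit already sets the viruses side by side within each medium. Depth limits CBS in the knockdown in PBS and CTH in every library.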

Other observations

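Among list genes under the filter, CHAC1, which cleaves glutathione, stood at 0.83 and 1.59 FPKM under the control virus (PBS, then DMS) and at 0.208 and 1.13 FPKM under the Myc shRNA. This is the order of levels that CTH showed, with the lowest value in the knockdown in PBS and the highest in control cells in DMS. SQRDL, the quinone oxidoreductase that oxidises sulfide, was at most 0.043 FPKM, and CDO1, the cysteine dioxygenase, at most 0.0247 FPKM. NNMT and HNMT, which methylate nicotinamide and histamine, were listed at 0 in every library, and TCN2, which carries cobalamin in plasma, was at most 0.0576 FPKM.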
